A study of Mus musculus with 4 samples.

Results

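Expression differences that ran the same way between libraries labelled Card9-/- and libraries labelled wild type (WT) were described in mouse colon, in untreated mice and after a colitis-associated cancer protocol. A gene was a member if the library labelled knockout and the WT library were at least 2-fold apart in both pairs, in the same direction, with at least 50 raw counts in the higher library of each pair. Folds for this rule were taken on log2(CPM + 1), where CPM is the counts-per-million level scaled by the TMM method, which sets the library sizes so that most genes have ratios near 1. Of 44788 gene entries, 14748 had 50 counts in the higher library of each pair and were tested by the rule, and 343 were members. In the libraries labelled knockout 117 members were higher in both pairs (0.793% of genes tested) and 226 were lower in both pairs (1.53%). Folds printed for single genes are ratios of CPM without the added 1, and log2 ratios include it. The rule used these same ratios, so they are given as a description without a test.

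The study sequenced RNA from colon tissue of C57BL/6 mice on the Ion Proton instrument. It compared WT mice with mice lacking Card9, an adaptor protein that carries signals from fungal-sensing receptors of myeloid cells, each untreated (labelled day 0) or given AOM/DSS. AOM (azoxymethane, a colon carcinogen) was injected at 10 mg/kg on day 1, and DSS (dextran sulfate sodium, which injures the colon lining) was given 5 days later in the drinking water at 2% for 7 days per cycle, for 3 cycles, with tissue taken on day 100. Each of the 4 groups, WT untreated, labelled knockout untreated, WT AOM/DSS and labelled knockout AOM/DSS, had 1 library. The sources used here do not give age, sex, knockout allele, segment of colon, or whether a library was 1 mouse or a pool. With 1 library per group neither pair has a replicate check, and label, animal and piece of tissue cannot be told apart. The pairs share no library, so each gives its own value for every member.

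The mammalian gut keeps a record of position along its length. Hox genes sit in 4 clusters, and genes at the 3′ end of a cluster (low paralog numbers) are used toward the head while those at the 5′ end (high numbers) are used toward the tail, so that group 13 genes mark the hindgut and rectum. Absorptive cells also differ along the colon in carbonic anhydrases, bile acid carriers and ion pumps, and the fat of the mesentery lies against the outer wall. In bulk tissue, fewer cells of a type and less RNA per cell cannot be told apart.

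Card9 itself went against the label. Its counts were 44 in WT untreated, 69 in labelled knockout untreated, 116 in WT AOM/DSS and 245 in labelled knockout AOM/DSS, or 1.75, 3.18, 5.32 and 7.73 CPM. The labelled knockout libraries were 1.82-fold (95% counting interval 1.23 to 2.72) and 1.45-fold (1.16 to 1.83) above WT. The sources do not say which part of the gene was removed, and reads outside a deletion would still be counted. Their part in these counts was not tested, and the genotype label itself was not checked. The term "library labelled knockout" is used throughout because the Card9 counts went against the label. All intervals on folds are exact Clopper-Pearson intervals on the counts of 2 libraries, so they cover counting error only. Variation between animals, pieces of tissue and libraries is left out. The libraries carried no stated molecular identifiers, so PCR copies would be counted and even counting error may be understated.

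Total counts were 23022885 to 27706567 per library. The labelled knockout AOM/DSS library stood apart: across the genes tested its log2 levels had Pearson r of 0.823 to 0.844 with the other libraries, which had 0.938 to 0.953 among themselves. Its 12 smooth muscle genes summed to 1369 CPM, against 7070 to 9432 in the others, its 21 colonocyte genes to 1309 CPM, against 12108 to 16857, and its 21 Wnt target and stem cell genes to 3072 CPM, against 398 to 519. Its 8 pan-epithelial genes summed to 9329 CPM, against 11437 to 13758 in the others, with a median log2 ratio of -0.6 in the AOM/DSS pair. Cdx2, a hindgut epithelial factor, was at 258, 143, 279 and 16.9 CPM in the order WT untreated, labelled knockout untreated, WT AOM/DSS and labelled knockout AOM/DSS. Every member rests on that library for its second pair, and without it only the untreated pair remains, where the rule called 604 higher and 457 lower genes. The next paragraphs list values in the same order of libraries.

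In the untreated pair the rule's size and count limits were passed by 604 genes with the higher level under the knockout label (4.1%) and by 457 with the lower (3.1%). In the AOM/DSS pair 1418 (9.61%) were higher and 1866 (12.7%) lower. Of the 604 genes higher in the untreated pair, 19.4% were also higher in the AOM/DSS pair and 22% were lower there. Of the 457 genes lower in the untreated pair, 49.5% were also lower in the AOM/DSS pair and 21.7% were higher there. Counted from the other side, the members were 8.25% of the genes higher in the AOM/DSS pair and 12.1% of those lower. A further 133 genes (0.902%) were higher untreated and lower after AOM/DSS, and 99 (0.671%) the reverse. The number of genes higher in both pairs was thus below the number that were higher in the first and lower in the second.

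**Figure D1:**
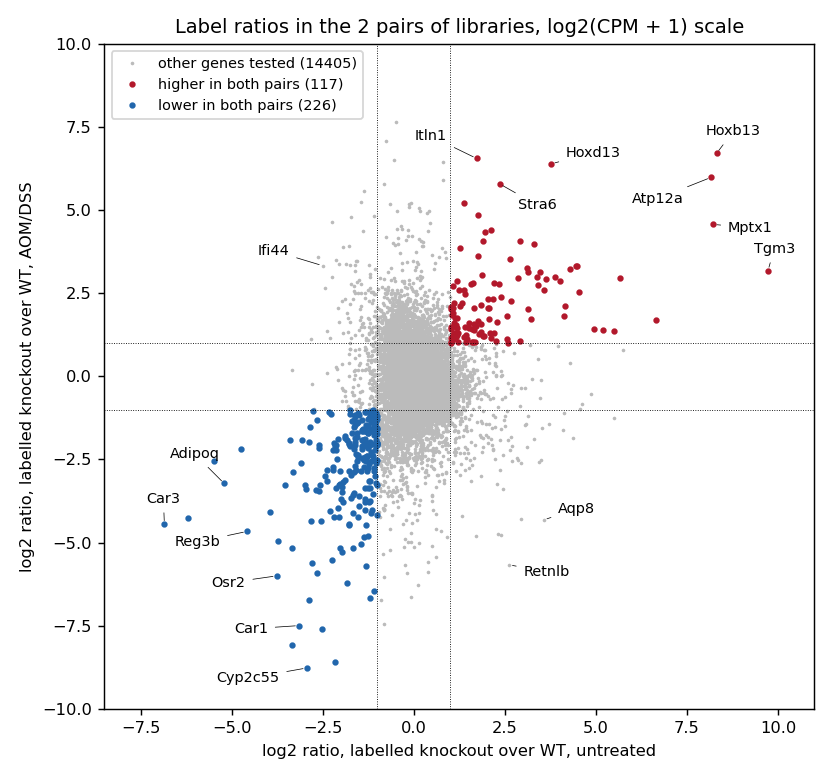
Each point is 1 of the 14748 genes tested, placed by its log2 ratio (labelled knockout over WT, on log2(CPM + 1)) in the untreated pair on the x axis and in the AOM/DSS pair on the y axis, with dotted lines at 2-fold. The 117 red points are higher and the 226 blue points lower in both pairs, with Hoxb13, Atp12a, Mptx1 and Tgm3 at the far right and Cyp2c55 and Car1 lowest among the blue points named, while grey points such as Aqp8 and Ifi44 pass the threshold in opposite directions.

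The 117 higher members had median log2 ratios of 1.84 untreated and 1.9 after AOM/DSS, and the 226 lower members -1.5 and -2.35, beside -0.01 in both pairs over all genes tested. The larger ratio was in the untreated pair for 57 higher members and in the AOM/DSS pair for 60. Among lower members it was in the untreated pair for 47 and in the AOM/DSS pair for 179. At least 4-fold in both pairs were 35 higher and 51 lower members. Both labelled knockout libraries lay above both WT libraries for 102 of the 117 higher members, against 13.2% of all genes tested, and below both for 211 of the 226 lower members, against 14.6%. The 2-fold rule in each pair favours this order, so the counts describe the members and are not separate support for them. For the other 15 in each direction the groups of 2 overlapped. By class, the higher members were 105 named genes, 9 predicted genes or clones, 2 pseudogenes and 1 immunoglobulin segment, and the lower members 190 named genes, 26 predicted genes or clones, 6 immunoglobulin segments and 4 pseudogenes.

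Hoxb13 ranked first among the higher members, and the Hox genes among the members divided by position in their clusters. Of 15 measured genes of paralog groups 1 to 8, 10 were lower in both pairs and none was higher. Of 10 measured genes of groups 9 to 13, 5 were higher in both pairs and 1, Hoxd9, was lower. The median log2 ratios were -2.0 and -2.19 for groups 1 to 8 and 1.23 and 1.12 for groups 9 to 13, in the untreated and AOM/DSS pairs.

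Hoxb13 (chr11:96194316-96196610), the terminal gene of its cluster and a marker of the distal colon and rectum, was at 0.0397, 330, 0.0459 and 109 CPM. Each WT library held 1 read of it, and the labelled knockout libraries held 7163 and 3438. The ratio was 8311-fold (1491 to 328297) untreated and 2367-fold (425 to 93508) after AOM/DSS. Hoxd13, the terminal gene of the D cluster, was at 0, 12.7, 0.0459 and 87.1 CPM. Against the floor of 3 counts used for a library with none, it was at least 107-fold higher untreated, and it was 1899-fold (340 to 75018) higher after AOM/DSS, where WT had 1 read. Hoxa13 was at 1.31, 33.1, 0.688 and 12.5 CPM, 25.3-fold (17.8 to 37) and 18.2-fold (10.9 to 32.8) higher. For these group 13 genes the WT libraries were at 1.31 CPM or less and the libraries labelled knockout at 12.5 CPM or more, with no overlap.

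The A cluster had higher members at its 5′ end, though not every gene there passed. Hoxa11, between Hoxa13 and Hoxa10, was not a member, with log2 ratios of 0.77 and 0.19. Hoxa10 was at 14.6, 49.1, 18.1 and 37.8 CPM and Hoxa9 at 6.98, 28.9, 12.6 and 30.4 CPM, both without overlap and 2.09-fold to 4.13-fold higher in each pair, though Hoxa10 did not pass with upper-quartile factors. Hoxa11os, a transcript antisense to Hoxa11, was at 7.58, 138, 6.6 and 54.1 CPM. Without stranded counting its reads cannot be told apart from those of Hoxa11 where they overlap. Evx1, a homeobox gene beside Hoxa13, was at 0.0397, 2.53, 0.367 and 38.9 CPM, 63.8-fold (11 to 2566) and 106-fold (53.6 to 246) higher. None of the 5 measured A cluster genes of groups 1 to 8 was a member, although 4 of them were at least 2-fold higher in the untreated pair.

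In the B cluster all 6 measured genes of groups 1 to 8 were lower in both pairs. Hoxb6 was at 75.1, 9.76, 48.6 and 1.42 CPM, 7.69-fold (6.67 to 8.91) and 34.2-fold (25.4 to 47.2) lower. Hoxb8 was at 30.4, 2.99, 16.6 and 0.663 CPM, 10.2-fold (7.88 to 13.3) and 25-fold (16.1 to 40.8) lower. Hoxb3, Hoxb4, Hoxb5 and Hoxb7 were between 13 and 31.6 CPM in WT and between 0.473 and 5.89 CPM in the libraries labelled knockout. Hoxb9, between these and Hoxb13, was not a member, with log2 ratios of -0.79 and -1.71. The 6 genes from Hoxb8 to Hoxb3 are consecutive among the genes tested (chr11:96279401-96347930), and Hoxb13 lies upstream of them in the same cluster.

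The D cluster held both directions as well. Hoxd4 was at 19.6, 2.39, 15.5 and 0.505 CPM, Hoxd3 at 5.2, 1.29, 3.99 and 0.0947 CPM, and Hoxd8 at 13.1, 2.21, 9.12 and 1.42 CPM, so that all 3 measured genes of groups 1 to 8 were lower. Hoxd9 was at 6.74, 0.598, 4.95 and 1.74 CPM, 11.3-fold (6.42 to 21.6) and 2.85-fold (2.04 to 4.02) lower, and did not pass when library totals replaced TMM. Between Hoxd9 and Hoxd13 the pairs differed: log2 ratios were -2.1 and 0.23 for Hoxd10 and -1.01 and 1.77 for Hoxd11. In the C cluster only Hoxc6 was measured in both pairs. It had 85 and 79 counts in WT and none in either library labelled knockout. Against the floor of 3 counts it was 24.4-fold and 38.3-fold lower (lower limits 19.4 and 30.4).

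Scaled by exon length, the leading Hox gene differed between the labels. Per kilobase of exon, the leading Hox genes in WT untreated were Hoxb6 at 38.2 CPM and Hoxb9 at 31.2 CPM, and in WT AOM/DSS Hoxb9 at 33.7 CPM and Hoxb6 at 24.7 CPM. In labelled knockout untreated Hoxb13 led at 149 CPM per kilobase, and in labelled knockout AOM/DSS Hoxb13 at 49.2 and Hoxd13 at 35.1 CPM per kilobase. The order within each library compares levels of different genes and has no replicate error.

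**Figure D2:**
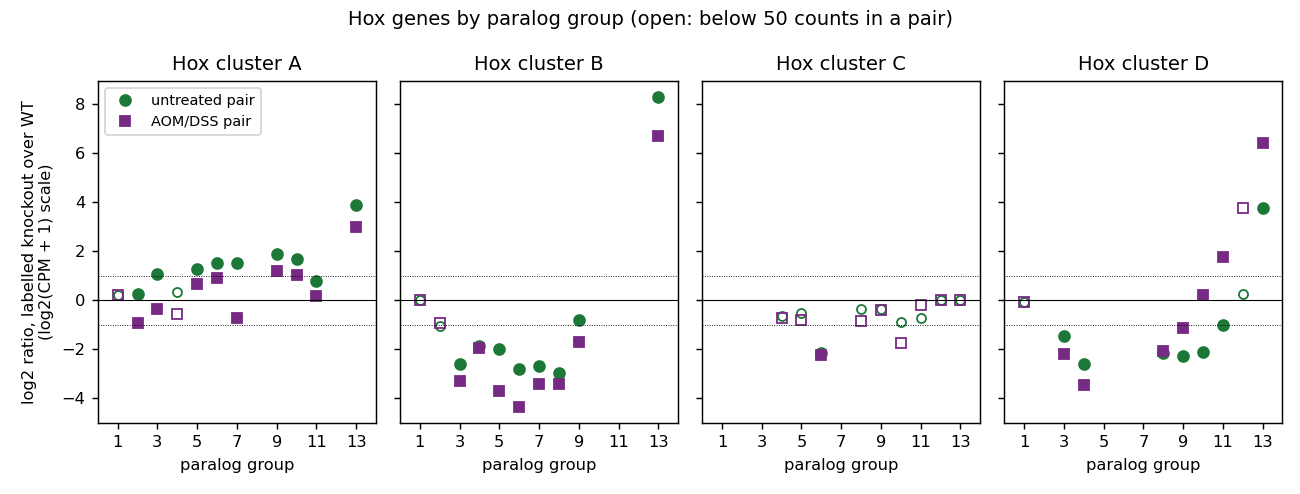
Log2 ratios (labelled knockout over WT, on log2(CPM + 1)) of the Hox genes, by paralog group on the x axis with 1 panel per cluster, circles for the untreated and squares for the AOM/DSS pair, and open symbols for genes under 50 counts in the higher library of a pair. Filled B and D cluster genes of groups 3 to 8 lie below 0 in both pairs, and the group 13 genes of the A, B and D clusters lie above 0 in both.

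Other position factors went both ways. Of 17 measured, 2 were higher in both pairs (Evx1 and Isl1) and 2 were lower, among them Osr2. Osr2, a zinc finger factor, was at 116, 7.55, 87.3 and 0.379 CPM, 15.3-fold (13.1 to 18) and 231-fold (132 to 447) lower. Isl1, a LIM homeobox factor, was at 0.516, 2.99, 0.779 and 8.93 CPM, 5.8-fold (3.17 to 11.5) and 11.5-fold (7.03 to 20) higher. Isx, an intestine-specific homeobox factor that restrains vitamin A uptake and was picked out after its values were seen, was at 242, 69.3, 222 and 9.28 CPM, lower without overlap.

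Outside the Hox clusters, Atp12a and Mptx1 ranked highest among the higher members. Atp12a, the catalytic subunit of the colonic proton-potassium pump, was at 2.1, 886, 2.57 and 225 CPM, 421-fold (322 to 563) and 87.7-fold (67.5 to 116) higher. Fxyd4, a small regulator of the sodium-potassium pump, had no counts in either WT library and 463 and 288 in those labelled knockout. Against the floor of 3 counts it was 179-fold and 66.1-fold higher (lower limits 145 and 53.4). Tgm3, a transglutaminase that crosslinks proteins, was at 1.07, 1751, 1.88 and 25.1 CPM, 1634-fold (1123 to 2480) higher untreated and 13.3-fold (9.75 to 18.7) after AOM/DSS. Tgm3 was therefore much nearer to WT in the AOM/DSS pair, while Atp12a was far above WT in both.

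Mptx1, a mucosal pentraxin, was at 3.25, 1272, 1.93 and 68.6 CPM, 391-fold (315 to 492) and 35.6-fold (26.2 to 49.5) higher. Another gene of the family, Mptx2, had 1 count in each WT library and 376 and 112 in those labelled knockout. The 2 sequences were not compared, so any sharing of reads between these genes is not known. Ang4, an antimicrobial ribonuclease of goblet and Paneth cells and the only member among 13 goblet cell genes, was at 4.84, 127, 5.32 and 61.8 CPM. Ctse (cathepsin E) was at 1.79, 53.1, 3.44 and 40.8 CPM, and Muc1, a membrane mucin, at 1.9, 20.9, 1.51 and 41.1 CPM. In each of these 5 genes both libraries labelled knockout were above both WT libraries. The same held for Tmprss13 (a membrane serine protease), Fut9 (a fucosyltransferase), Slc28a3 (a nucleoside carrier), Angptl7 and Pla2g2f (a secreted phospholipase), whose WT levels were 0 to 8.07 CPM and labelled knockout levels 8.84 to 69.5 CPM.

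Genes of mucosal defence were split. Of 15 antimicrobial epithelial genes measured, 3 were higher in both pairs, 3 lower and 2 passed in opposite directions. The higher ones were Nox1, the superoxide-forming oxidase of colon epithelium, at 11.1, 54.2, 16.7 and 42.9 CPM, Duoxa2, the maturation factor of Duox2, at 7.66, 28.3, 29.5 and 95.9 CPM, and Pla2g2a, at 0.357, 2.53, 5.14 and 228 CPM. The Pla2g2a product is a bactericidal phospholipase in other strains, but the gene is disrupted in C57BL/6 mice and was counted among the pseudogenes above. The WT AOM/DSS library was above the untreated library labelled knockout for Duoxa2 and Pla2g2a, so those groups overlap. The lower ones were Reg3b, Reg3g and Saa3. Reg3b, a lectin that kills bacteria, was at 194, 7.13, 2707 and 106 CPM, 27.2-fold (23.2 to 32.2) and 25.6-fold (24.7 to 26.5) lower. Within each label it was higher in the AOM/DSS library, and WT untreated was above labelled knockout AOM/DSS. Reg3g was at 34.4, 3.77, 545 and 137 CPM and Saa3, a serum amyloid protein, at 18.8, 5.48, 272 and 119 CPM, and for both the groups overlap. Saa3 did not pass with library totals. Reg3b and Reg3g are neighbours with similar sequences (chr6:78370885-78468874), and both were the lower members among 10 Il17, Il22 and Ahr axis genes.

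Several cell type lists had a single higher member. Itln1, a lectin of Paneth and goblet cells, was at 1.19, 6.21, 1.19 and 206 CPM, 5.22-fold (3.49 to 8.04) and 172-fold (118 to 264) higher, as 1 of 4 measured Paneth genes. Mcpt1, a mucosal mast cell protease, was at 0.278, 3.73, 1.83 and 46.8 CPM, as 1 of 3 measured mast cell and eosinophil genes. Ciita, the transactivator of MHC class II genes, was at 11.6, 27.9, 24.5 and 69.5 CPM, while the other 8 class II genes did not pass in the same direction in both pairs. Clps, the pancreatic colipase, was at 6.94, 15.2, 0.825 and 6.47 CPM, with overlap, as 1 of 3 measured exocrine pancreas genes, and did not pass with library totals or DESeq2 size factors. Marker sums beside them were 111, 98.5, 73.4 and 2917 CPM for Paneth genes. For mast cell and eosinophil genes they were 157, 97.8, 61.7 and 343 CPM. Both sums were thus lower under the knockout label in the untreated pair and higher in the AOM/DSS pair. The exocrine pancreas list of 13 genes summed to 35, 232, 56 and 539 CPM, higher under the knockout label in both pairs. Different genes made up the sums: Cela1, an elastase, was at 25.9, 205, 48.6 and 38.4 CPM, and the lipases Pnliprp1 and Pnliprp2 reached 206 and 287 CPM in labelled knockout AOM/DSS. The part of these cell types in the differences was not tested.

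Some higher members were picked out after their values were seen. Abcg5 and Abcg8, which together form the sterol exporter, are neighbours (chr17:84658174-84700333) and were at 1.59, 9.62, 3.71 and 18.4 CPM and at 2.3, 6.44, 5.5 and 14.3 CPM. Both were higher without overlap, 6.06-fold and 4.96-fold for Abcg5 and 2.8-fold and 2.6-fold for Abcg8. Cldn8, a tight junction protein of tight distal epithelia, was at 28.4, 61.6, 8.16 and 33.3 CPM. Trpv6, an epithelial calcium channel, was at 0.357, 4.23, 0 and 19.3 CPM. Stra6, the receptor for retinol-binding protein, was at 0.516, 6.77, 4.86 and 323 CPM, 13.1-fold (7.44 to 25.2) and 66.5-fold (54.9 to 81.3) higher. The groups of Cldn8, Trpv6 and Stra6 did not overlap either. For Cldn8 and Stra6 the highest WT library came close to the lowest library labelled knockout, at 28.4 against 33.3 and 4.86 against 6.77 CPM.

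**Figure D3:**
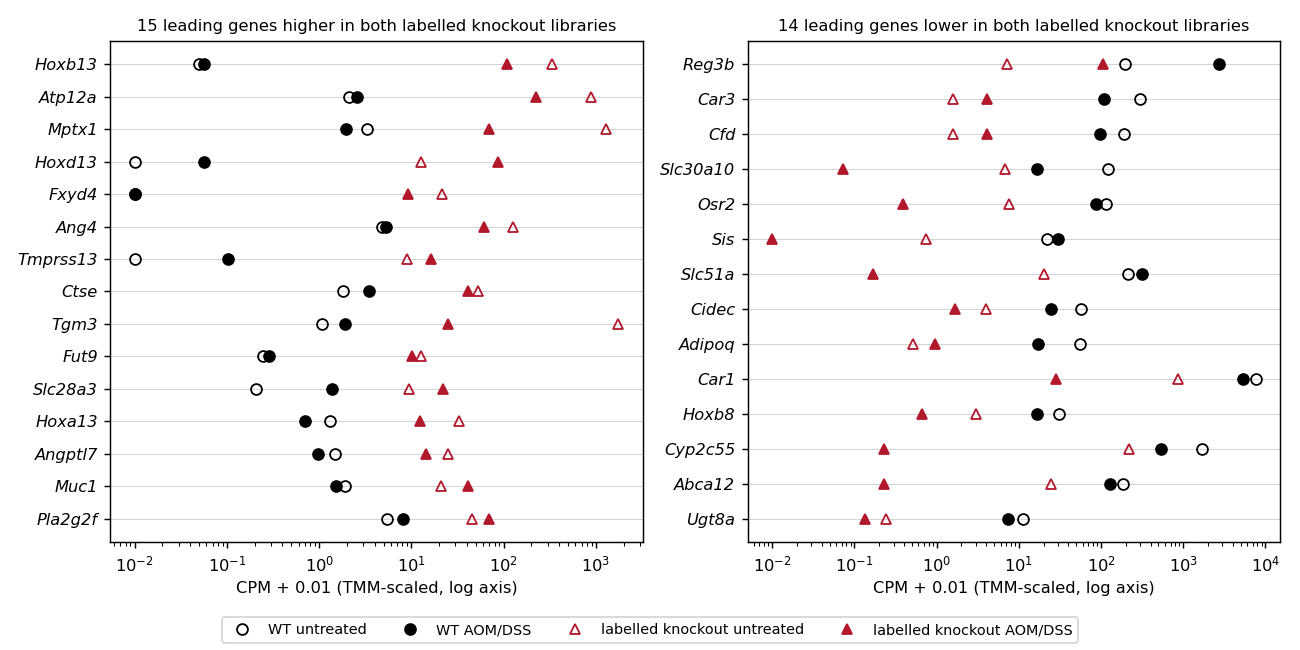
CPM plus 0.01 on a log axis of 15 higher and 14 lower members among the 15 highest-ranked of each direction, ranked by the smaller of their absolute log2 ratios, with open symbols for untreated and filled symbols for AOM/DSS libraries, circles for WT and triangles for libraries labelled knockout. Values of 0 sit at the left edge, where both WT circles of Fxyd4 coincide. In all 15 genes on the left both triangles lie to the right of both circles, and in all 14 genes on the right both triangles lie to the left of both circles.

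Lower members included genes of the absorptive colon surface. Of 21 colonocyte genes measured, 6 were lower in both pairs (among them Car1, Cyp2c55, Slc51a, Slc51b and Emp1), 1 was higher (Atp12a) and 6 passed in opposite directions. Car1, a cytosolic carbonic anhydrase, was at 7654, 857, 5313 and 28.4 CPM, 8.93-fold (8.79 to 9.06) and 187-fold (175 to 200) lower. Slc51a, a subunit of the basolateral bile acid exporter, was at 215, 20, 311 and 0.158 CPM, 10.7-fold (9.73 to 11.9) and 1971-fold (844 to 6073) lower, and its partner Slc51b at 68.8, 29.6, 58.2 and 3.38 CPM. Angptl4, a lipase inhibitor at 8.93, 3.54, 26.1 and 12.5 CPM that did not pass with library totals, DESeq2 size factors, thinning or a pseudocount of 5 CPM, was among the 2 lower members of 14 Ppar and ketone genes. For Car1, Slc51a and Slc51b both libraries labelled knockout were below both WT libraries, and the AOM/DSS library labelled knockout was the lowest. The groups of Angptl4 overlapped. The summed level of all 21 colonocyte genes was 16857, 12108, 14389 and 1309 CPM, and the list was not lower throughout: in the untreated pair 11 of the 21 were past 2-fold upward and 6 downward, against 1 and 16 after AOM/DSS.

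Slc10a2, the apical bile acid carrier of the ileum, and Sis, the brush border sucrase-isomaltase, were the 2 lower members among 10 small intestine genes measured. Slc10a2 was at 64.2, 5.11, 60.9 and 15.5 CPM, 12.6-fold (10.4 to 15.4) and 3.93-fold (3.54 to 4.37) lower. Sis was at 22, 0.736, 29.7 and 0 CPM, 29.8-fold (18.2 to 52.6) lower untreated. After AOM/DSS it was 314-fold lower against the floor of 3 counts (lower limit 254). With Slc51a and Slc51b, the apical and basolateral bile acid carriers were thus all lower in both pairs without overlap. Abca12 (a lipid transporter) at 187, 24.3, 129 and 0.221 CPM and Slc30a10 (a manganese exporter) at 121, 6.81, 16.8 and 0.0631 CPM were among the 15 leading lower genes.

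Detoxifying enzymes were also among the lower members. Of 17 cytochrome P450 and steroid enzyme genes measured, 6 were lower in both pairs, none was higher and 3 passed in opposite directions. Cyp2c55 was at 1684, 218, 533 and 0.221 CPM, 7.73-fold (7.5 to 7.97) and 2412-fold (1170 to 6001) lower. Cyp2c65 was at 268, 46.1, 267 and 0.379 CPM and Cyp2c66 at 14.8, 1.7, 19.3 and 0 CPM, and the 3 genes are consecutive among those tested (chr19:39006940-39186756). Cyp4b1 was at 51.1, 9.62, 27.6 and 0.726 CPM. Ugt8a, which adds galactose to ceramide, was at 11.2, 0.23, 7.34 and 0.126 CPM, and Ugt1a1, which conjugates bilirubin, at 144, 60.1, 97.9 and 2.53 CPM. Ugt1a6a and Ugt1a6b share their 3′ exons with Ugt1a1, and the Cyp2c genes are close paralogs, so their reads may be divided unevenly. In all of these genes both libraries labelled knockout were below both WT libraries.

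Promoter sequence was set beside these members because Hox, Cdx and Hnf factors bind promoters of gut epithelial genes. In the RefSeq promoter table (GRCm38.p6) 222 of the 343 members matched by symbol, and the 250 bases upstream of the start were searched on both strands for CAATAAA, a core that group 13 Hox and Cdx proteins bind, for CAAAGTCCA, an Hnf4 core, and for the core motif of Hnf1. CAATAAA was present in 6 of 76 higher (7.89%) and 11 of 146 lower (7.53%) members, against 3.01% of the 9866 genes tested that had a promoter entry. These shares count a gene if any of its promoters matched. Among all 32851 promoters, counted singly and so not in the same unit, the share was 4.2%. CAAAGTCCA was in 1.32%, 2.05%, 0.517% and 0.384% of the same sets, and the Hnf1 motif in 1.32%, 3.42%, 0.304% and 0.371%. A match is a description of letters and not a binding site. The 5 shown were chosen after the matches were known, from a larger number of members with a match, to cover both directions and each of the motifs. They are printed 5′ to 3′ in the gene's direction, with matches in capitals (TTTATTG is CAATAAA on the other strand). The Hoxb8 stretch lies before a RefSeq start that falls inside the interval of the gene, and the other 4 lie before the gene's outer start.
Mptx2, chr1:173277757-173278006, minus strand: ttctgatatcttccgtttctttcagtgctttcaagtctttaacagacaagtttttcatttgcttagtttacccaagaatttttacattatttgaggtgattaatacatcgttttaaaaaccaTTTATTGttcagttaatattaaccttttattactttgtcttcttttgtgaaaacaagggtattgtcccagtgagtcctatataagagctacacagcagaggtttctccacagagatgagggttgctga
Sis, chr3:72967864-72968113, minus strand: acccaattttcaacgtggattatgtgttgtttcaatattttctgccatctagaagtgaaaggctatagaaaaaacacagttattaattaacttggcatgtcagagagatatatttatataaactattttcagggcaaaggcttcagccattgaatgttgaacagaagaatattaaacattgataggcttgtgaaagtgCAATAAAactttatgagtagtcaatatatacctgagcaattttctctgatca
Hoxb8, chr11:96281655-96281904, plus strand: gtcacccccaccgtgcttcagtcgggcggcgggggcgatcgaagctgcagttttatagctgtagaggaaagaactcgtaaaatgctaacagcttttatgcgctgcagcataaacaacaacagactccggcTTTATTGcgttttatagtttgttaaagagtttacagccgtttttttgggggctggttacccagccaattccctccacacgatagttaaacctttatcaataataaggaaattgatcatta
Cyp2c65, chr19:39060756-39061005, plus strand: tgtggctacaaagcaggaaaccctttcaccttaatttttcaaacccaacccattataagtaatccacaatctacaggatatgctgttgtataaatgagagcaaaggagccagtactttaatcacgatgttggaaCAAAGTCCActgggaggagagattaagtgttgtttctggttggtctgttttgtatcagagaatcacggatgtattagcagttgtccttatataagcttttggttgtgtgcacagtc
Slc10a2, chr8:5105288-5105537, minus strand: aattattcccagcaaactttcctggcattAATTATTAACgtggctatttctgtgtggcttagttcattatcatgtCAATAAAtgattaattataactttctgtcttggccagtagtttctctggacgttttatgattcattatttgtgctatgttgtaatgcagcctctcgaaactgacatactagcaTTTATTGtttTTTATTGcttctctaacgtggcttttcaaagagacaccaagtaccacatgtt

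The higher member Mptx2 and the lower members Sis and Hoxb8 each hold CAATAAA or its complement once. In Cyp2c65 the match is to CAAAGTCCA. Slc10a2 holds CAATAAA 3 times and the Hnf1 motif once within the 250 bases. Genes in both directions thus held the same core.

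Fat cell genes were among the lower members. Of 21 measured, 11 were lower in both pairs and none was higher, with 14 lower in the untreated pair and 15 in the AOM/DSS pair, and median log2 ratios of -1.97 and -2.01. Adipoq, the fat hormone adiponectin, was at 54.8, 0.506, 17.1 and 0.947 CPM, 108-fold (60.3 to 217) and 18.1-fold (12.5 to 27.2) lower. Cfd (adipsin, complement factor D) was at 188, 1.56, 96.7 and 4.14 CPM and Car3, a carbonic anhydrase abundant in fat, at 295, 1.56, 110 and 4.1 CPM. Both libraries labelled knockout were below both WT libraries in each of these 3 genes.

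The lipid droplet proteins followed. Plin1 was at 28.1, 0.0921, 5.09 and 0.347 CPM, where labelled knockout untreated held 2 reads, 306-fold (84.3 to 2528) and 14.7-fold (7.88 to 30.2) lower. Cidec was at 57.6, 4, 24.8 and 1.67 CPM and Plin4 at 85.5, 20.3, 47.5 and 5.68 CPM. Fabp4, the fatty acid carrier of fat cells and macrophages, was at 77.3, 16.1, 30.3 and 6.79 CPM and the hormone Retn (resistin) at 9.12, 0.184, 6.24 and 0.189 CPM. Thrsp, Adrb3 and Pparg, the master regulator of fat cell formation that epithelium also expresses, were 2.03-fold to 8.13-fold lower. The 10 measured genes outside the 11 included Lpl, just outside the rule with log2 ratios of -2.73 and -0.996, and Fasn and Scd1, which other cells make as well, at -0.42 and 0.78 and at -1.97 and 0.38. The whole list of 25 genes summed to 2580, 1156, 1563 and 1093 CPM, and Ucp1, the brown fat uncoupler, had no counts in either WT library. Among lower members off the list, Cd36, Acacb, Aoc3 and Mgll, which fat cells also make and which were chosen after their values were seen, were 2.42-fold to 3.58-fold lower untreated and 2.38-fold to 7.21-fold lower after AOM/DSS. How much fat tissue lay on each piece of colon was not recorded in the sources used here, and its part in the difference was not tested.

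**Figure D4:**
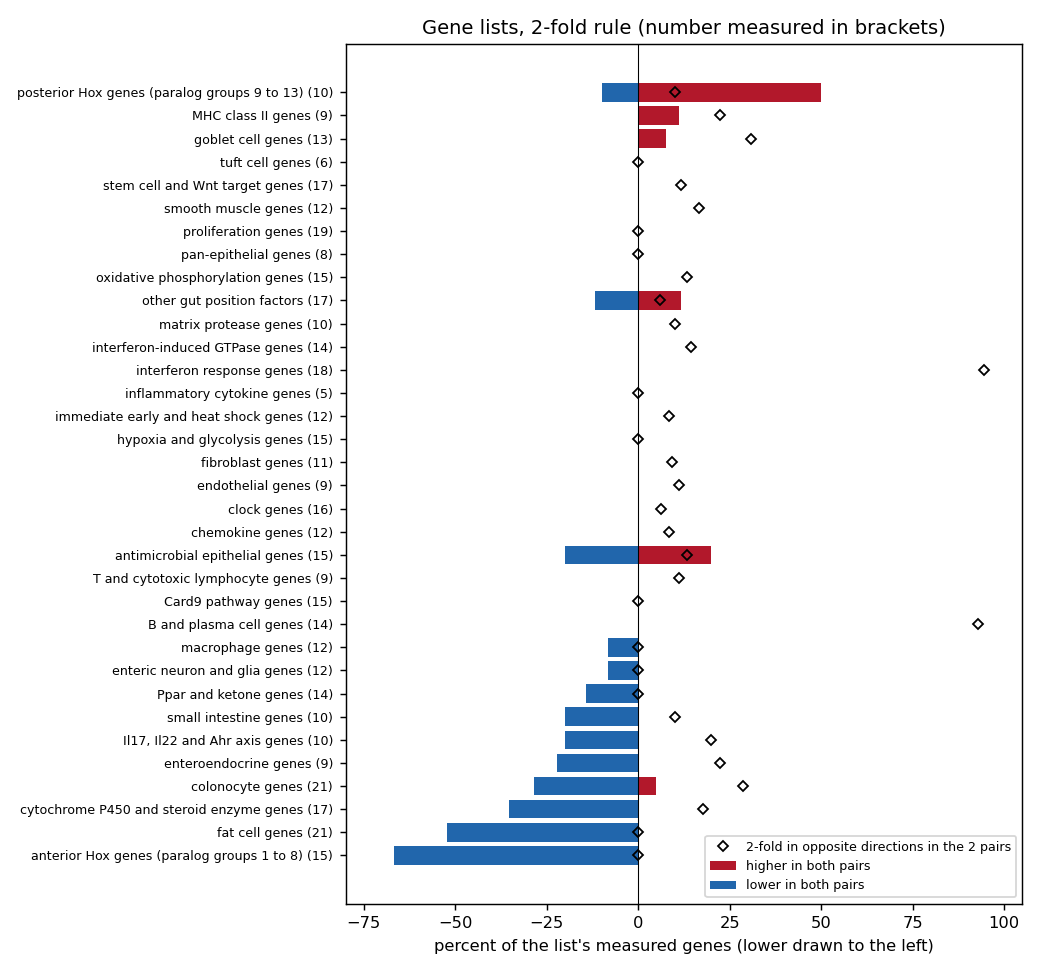
For each gene list with 5 or more measured genes (number in brackets), the percent of them higher (red, to the right) and lower (blue, to the left) in both pairs, with diamonds for the percent that passed in opposite directions. The blue bars are longest for Hox genes of groups 1 to 8 (10 of 15) and fat cell genes (11 of 21), and the diamonds lie farthest right for interferon response (17 of 18) and B and plasma cell genes (13 of 14).

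Hormone and nerve genes added a few lower members. Of 9 enteroendocrine genes measured, Nts (neurotensin), at 25.9, 4.74, 8.3 and 0.316 CPM, and Chga (chromogranin A), at 199, 95.2, 73.1 and 27.9 CPM, were lower in both pairs, and 2 passed in opposite directions. Chga overlapped, since WT AOM/DSS was below labelled knockout untreated. The hormone Sct (secretin), the prohormone convertase Pcsk1 and the calcium-binding Scgn, seen only after values were known, were also lower, at 34.4, 10.7, 16.5 and 1.48 CPM for Sct. Of 12 enteric neuron and glia genes, Vip was the only one lower in both pairs, at 31.2, 15, 21.1 and 4.42 CPM, and the list summed to 159, 117, 155 and 53.2 CPM. Cd163, a scavenger receptor of resident macrophages, at 16.7, 4.69, 8.8 and 1.17 CPM, was the only member among 12 macrophage genes, 9 of which were higher in the AOM/DSS pair.

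Metabolic members, again chosen after their values were seen, included enzymes of 1 pathway in both directions. Of the urea cycle and its feeder enzymes, Cps1 (carbamoyl phosphate synthetase) was at 26.1, 5.06, 11.9 and 2.02 CPM, Nags, which makes its activator, at 18.6, 6.72, 13.8 and 0.158 CPM, and Arg2 (mitochondrial arginase) at 21, 3.04, 49.2 and 5.33 CPM, all lower in both pairs. Ass1 (argininosuccinate synthase) was higher, at 2.9, 7.41, 4.08 and 11.3 CPM. In sulfate handling, the carriers Slc26a1 and Slc13a1 and the sulfate-activating enzyme Papss2 were lower in both pairs, with Papss2 at 553, 261, 643 and 110 CPM. Among glycan enzymes, B4galnt2, at 1336, 530, 1194 and 85.4 CPM, and the mucin branching enzyme Gcnt3, at 465, 184, 394 and 37.6 CPM, were lower, while B3gnt7, at 12.7, 495, 24.9 and 67.7 CPM, and B3gnt5, at 5.51, 40.7, 17 and 85.2 CPM, were higher.

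Large differences of this series that were not shared are visible in the lists without members. Of 18 interferon response genes, 17 were lower in the untreated library labelled knockout and higher in the AOM/DSS one, and none passed the same way. Of 14 B and plasma cell genes, 13 were higher untreated and lower after AOM/DSS. Smooth muscle (12 measured), Wnt target and stem cell (17), proliferation (19), pan-epithelial (8), fibroblast (11), endothelial (9) and Card9 pathway (15) lists had no gene that passed the same way in both pairs. The same was true of the mesothelial (1), squamous (2), skeletal muscle (3), tuft cell (6), T and cytotoxic lymphocyte (9), neutrophil (3), erythrocyte (4), interferon-induced GTPase (14), cytokine (5), chemokine (12), matrix protease (10), clock (16), immediate early and heat shock (12), hypoxia and glycolysis (15), oxidative phosphorylation (15) and sex-linked (1) lists. The 6 leading genes that passed in opposite directions were Aqp8, Retnlb and Cr2 (higher untreated, lower after AOM/DSS) and Apol9b, Ifi44 and Oas3 (the reverse). Aqp8, a water channel of colon surface cells, was at 37.1, 448, 51.1 and 1.61 CPM.

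Members near Card9 were counted as well. Within 10 Mb of its start (chr2:26352187-26360945 for the gene) 4 of 224 genes tested were members (1.79%), against 2.33% of all genes tested. They were St6galnac4, at 12.9, 59.2, 14.8 and 34.2 CPM, Ass1, and Stom, at 44.1, 93.6, 86 and 203 CPM, which were higher (Stom not with library totals), and Hmcn2, at 391, 176, 198 and 11.2 CPM, which was lower. Along all chromosomes, 18 of the 113 higher and 35 of the 221 lower members with a RefSeq position lay next to another member of the same direction among genes tested. No such share was worked out for other genes, so these counts are a description only. The longest runs were those of the Hox clusters, followed by the 3 Cyp2c genes, and pairs included Abcg5 with Abcg8, S100a14 with S100a16, Ces1f with Ces1g and Reg3b with Reg3g. Chromosome 6, which carries the A cluster, Reg3b and Cidec, had the highest share of members, 4.38% of its genes tested.

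Just inside the threshold were Robo2, Anxa3 and Rdh9 on the higher side, with smaller log2 ratios of 1.019, 1.004 and 1.006, and Zbtb16, Ugt1a6b and Angptl4 on the lower side, at -1.005, -1.006 and -1.007. Just outside were Ifitm1, Slc46a1 and Ggh at 0.968, 0.966 and 0.957, and Lpl, Rnf150 and Mpdz at -0.996, -0.996 and -0.992. Members at low levels also depended on the added constant. With 5 CPM in place of 1, Angptl4, Ass1, Ciita, Clps, Evx1, Hoxa10, Hoxc6, Hoxd9, Isl1, Itln1, Mcpt1, Plin1, St6galnac4 and Vip no longer passed. With the count minimum raised to 200, Ass1, Cd163, Evx1, Hoxc6, Hoxd9, Isl1, Itln1, Mcpt1, Nts, Plin1, Retn, Tmprss13 and Ugt8a no longer passed.

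Treating the 2 libraries of a label as replicates, with treatment as a covariate, gave a test of the label over all genes. In edgeR's quasi-likelihood test 0 of 18973 genes (0%) passed a Benjamini-Hochberg adjusted p of 0.05, with a smallest adjusted p of 0.173, and 740 (3.9%) had an unadjusted p under 0.05. DESeq2's Wald test with the same design and the same 18973 genes called 256, 96 higher and 160 lower, and without that filter it called 260 of 29913. Without the filter edgeR's test called 62. The fit has 1 residual degree of freedom. For a single gene the smallest two-sided permutation p that 2 against 2 libraries can reach is 0.333 when labels are shuffled freely. Free shuffling ignores the pairing by treatment, which leaves fewer arrangements. No member passed the adjusted threshold in edgeR's test. The 1 residual degree of freedom holds the difference between the 2 pairs in their label ratio, not a spread among replicates. The test therefore cannot show that members do not differ between labels.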

How the data were processed

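RNA from colon of 4 groups, 1 library each, was sequenced with an Ion Proton kit, per the labels' protocols. The authors deposited raw read counts per gene in 1 table. Per the submitters' processing notes, reads were placed on GRCm38 (mm10). Not given in the sources used here were aligner, counter, annotation, strand setting and any pooling of animals. Totals of 23022885 to 27706567 counts set the precision. Of the gene entries, 27 carried dates in place of symbols and held at most 0.16% of a library. None was a member.

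Counts were scaled by TMM (edgeR 4.0.16, R 4.3.3). Ratios used log2(CPM + 1), with genes called at 2-fold and 50 counts. Counting intervals (95%) were Clopper-Pearson on the 2 libraries' observed counts. In the printed folds, but not in the intervals, 3 counts stood for 0. The label was tested over all genes by edgeR's quasi-likelihood test with treatment as covariate. DESeq2 1.42.0, other scalings, pseudocounts, filters and thinning were alternatives. Gene positions and promoters came from RefSeq, and exon lengths from GENCODE, both on GRCm38. Python 3.11.15 was used for the rest.

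The members and the gene lists were chosen with earlier results of these data known. Named genes were the 15 highest-ranked members in each direction by the smaller absolute log2 ratio (pseudogenes, predicted genes and immunoglobulin segments left out), list members to a limit of 6 per direction, members within 10 Mb of Card9, the 3 nearest on each side of the threshold, and the 3 leading genes of each opposite direction. Other genes given values fall outside this rule, and only some of them are marked as chosen after their values were seen. Values of a few of the named genes are left out of the text and figures.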

Additional observations from a re-analysis of the deposited data

How the results depend on the processing

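Each member rests on 1 library per group. A pseudocount of 5 CPM gave 59 higher and 121 lower genes, at least 200 counts gave 84 and 150 (234 of the 343 members), and 4-fold in both pairs gave 35 and 51. The untreated pair alone, an alternative chosen after seeing the data, gave 604 and 457. Under the other settings (no pseudocount or 0.5 CPM, no count minimum, library totals, upper-quartile or DESeq2 size factors, scaling without genes above 1% of a library, and equal depth by thinning) there were 104 to 150 higher and 223 to 285 lower. Library totals moved the median log2 ratio of all genes to 0.24 in the AOM/DSS pair and kept 312 of the 343 members. Of the 67 members that the naming rule picks, 53 still passed with a pseudocount of 5 CPM, 54 with at least 200 counts and 41 at 4-fold, and 62 under library totals, all but Angptl4, Clps, Hoxd9, Saa3 and Stom, and none changed direction under any setting. The additive label test called 0 genes with TMM, DESeq2 size factors or upper-quartile factors, 15 with library totals, and 62 with no filter beyond 1 count (29913 genes). DESeq2's Wald test called 260 of those 29913 genes, and 256 of the 18973 that passed edgeR's filter, an alternative also chosen after seeing the data. The cause was not tested. Label alone, leaving out each library in turn, gave 0 to 210 genes, and the 210 came without the untreated library labelled knockout. The lone library of a label is there assumed to vary like the other label's. The additive fit pairs the libraries by treatment, and label alone, without that pairing, also called 0. The labels carry no replicate numbers to pair by.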
